A study of Mus musculus with 6 samples.

Results

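The genes described here encode the machinery that licenses and copies chromosomal DNA: 42 genes of the 24470 listed in the deposited count table. They were chosen by gene symbol from what their proteins do, with earlier results of these data known. They comprise the 6 subunits of the origin recognition complex, the 3 licensing regulators Cdc6, Cdt1 and Gmnn, the 6 subunits of the MCM2-7 helicase, 8 genes of helicase activation, 8 of the replicative polymerases and primase, 6 of the sliding clamp and its loader, the flap nuclease Fen1 with DNA ligase I, and the 3 subunits of replication protein A. All 42 symbols were found and all 42 passed the filter on low counts.

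The RNA came from naive CD4+ T cells, which are T helper cells that have not yet met their antigen, purified with magnetic beads from male C57BL/6J mice, whose spleens and skin-draining lymph nodes supplied the cells. In 3 samples the cells were cultured for 6 h with CCL19, the chemokine ligand of CCR7 (recombinant, mouse), on plates coated with anti-CD3 and anti-CD28 antibodies at 1 µg/mL. The other 3 samples, called no-CCL19, were cultured for 6 h on plates coated in the same way, without the chemokine. Every sample was therefore stimulated through the T cell receptor and CD28, in a volume of 200 µL, and the sources used here give neither the CCL19 concentration nor the age of the mice. No resting cells and no later time are among the samples, so the comparison addresses what CCL19 adds early in stimulation. Nothing in the labels says whether the 3 samples of a group came from separate animals or cultures, and p-values therefore measure only the spread between these samples.

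DNA replication is prepared before it begins. In late mitosis and G1 phase the origin recognition complex, with Cdc6 and Cdt1, loads MCM2-7 helicases on chromatin in an inactive form, which is called licensing, and geminin (Gmnn) blocks Cdt1 once S phase has started. The Cdc7-Dbf4 kinase and cyclin-dependent kinases then convert loaded helicases into active ones with Cdc45 and GINS, and polymerases, clamp and ligase follow. Resting T cells sit in G0, and many of these genes are induced through E2F transcription factors when an activated T cell moves through G1 toward S phase, which in mouse T cells takes longer than the culture period used here.

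The promoters are shown because they share an E2F-type word although their genes include barely detected and abundant ones, from Orc1 at 0.446 TPM to Mcm6 at 72.4 TPM (transcript levels scaled by exon length, averaged over the 6 libraries). In RefSeq promoter windows of 300 bases (250 before and 50 after the start, GRCm38.p6), the letters TTTCCCGC, TTTCGCGC, TTTGCCGC and TTTGGCGC were searched on both strands. A promoter was given for 34 of the 42 genes, and 14 of the 34 (41.2%) held at least 1 of the words, against 461 of 9322 tested genes with a promoter (4.95%). The 14 were Orc1, Orc3, Cdc6, Cdt1, Mcm3, Mcm5, Mcm6, Mcm7, Gins3, Pola1, Pold1, Pole2, Rfc3 and Lig1. Over single windows the share was 14 of 43 (32.6%), against 744 of 32851 windows of all genes (2.26%). A match describes letters in a window and is not evidence of binding. The 250 upstream bases of 4 of these genes follow, 5′ to 3′ on the strand of the gene, with the words in capitals, overlapping words as 1 run. The first 2 belong to genes that were barely detected, Orc1 (chr4:108579204-108579453, plus strand) and Cdc6 (chr11:98907901-98908150, plus strand). The other 2 belong to abundant genes, Mcm5 (chr8:75109259-75109508, plus strand) and Mcm6 (chr1:128359706-128359955, minus strand).
Orc1: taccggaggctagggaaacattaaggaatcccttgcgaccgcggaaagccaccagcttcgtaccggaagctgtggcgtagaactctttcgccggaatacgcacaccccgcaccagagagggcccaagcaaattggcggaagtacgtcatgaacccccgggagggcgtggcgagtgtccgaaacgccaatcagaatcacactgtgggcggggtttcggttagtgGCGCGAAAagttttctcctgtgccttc
Cdc6: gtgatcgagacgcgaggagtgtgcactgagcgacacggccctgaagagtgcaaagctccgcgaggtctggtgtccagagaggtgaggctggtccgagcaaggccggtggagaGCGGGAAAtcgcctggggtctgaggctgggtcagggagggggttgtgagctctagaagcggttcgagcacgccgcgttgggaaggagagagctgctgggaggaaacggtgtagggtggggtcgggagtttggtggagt
Mcm5: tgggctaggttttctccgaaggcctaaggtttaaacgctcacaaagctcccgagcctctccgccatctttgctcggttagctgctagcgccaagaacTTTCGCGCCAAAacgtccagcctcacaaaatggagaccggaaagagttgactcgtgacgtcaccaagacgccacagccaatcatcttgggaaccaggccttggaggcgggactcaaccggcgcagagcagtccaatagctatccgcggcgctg
Mcm6: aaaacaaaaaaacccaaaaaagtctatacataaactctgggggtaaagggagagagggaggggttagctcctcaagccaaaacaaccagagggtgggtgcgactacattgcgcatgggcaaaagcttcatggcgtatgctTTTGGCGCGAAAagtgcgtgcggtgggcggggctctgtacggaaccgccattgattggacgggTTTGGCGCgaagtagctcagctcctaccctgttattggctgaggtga
Orc1 and Cdc6 each held 1 word, at 27 and 138 bases before the start. For Cdc6 the gene in the deposited count table begins earlier, at position 98907889. The bases shown for Cdc6 therefore lie before the RefSeq start but inside that gene. Mcm5 held 2 overlapping words, and Mcm6 held 3, of which 2 overlapped.

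Levels were compared between genes as TPM, computed here from the counts, exon lengths and library totals. The exon length of a gene joins the exons of all its listed transcripts, whether or not these cells use them. Transcripts of the machinery were present very unevenly in these cells. Those of the helicase subunits lay at near-equal levels, and those of several loading and activation factors close to the detection limit. Averaged over all 6 libraries, Pcna, the sliding clamp, was the highest member at 286 TPM, at the 91.3 percentile of tested genes. Pold2, a small subunit of polymerase delta, followed at 142 TPM, Cdt1 at 97.3 TPM and Mcm2 at 89.3 TPM. The lowest members were Mcm10, a helicase activation factor, at 0.415 TPM, Orc1, the largest ORC subunit, at 0.446 TPM, and Cdc6, the ATPase that completes the loading platform, at 0.59 TPM. Gins2 stood at 1.62 TPM and Cdc45 at 3.04 TPM. The 2 licensing factors that work together, Cdt1 and Cdc6, thus lay near opposite ends of the list.

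Transcript levels of the subunits of 1 complex were near-equal in some complexes and not in others. In MCM2-7, which forms a ring with 1 copy of each subunit, the highest mean level (Mcm2) was 1.64 times the lowest (Mcm5, 54.5 TPM). In the origin recognition complex the highest, Orc3 at 74.5 TPM, was 167 times the lowest, Orc1. In GINS, Gins4 at 54 TPM was 33.3 times Gins2. This ratio rests partly on exon length, 3900 bases for Gins2 and 1349 for Gins4. Counts scaled to a common library total (CPM) leave out length. In CPM, Gins4 had 27.2 in CCL19 cells and 26.9 in no-CCL19 cells, against 2.4 and 2.3 for Gins2. The clamp loader spanned 3.16 times (Rfc1 over Rfc5), replication protein A 2.61 times (Rpa1 over Rpa3), polymerase alpha with primase 9.95 times (Pola2 over Pola1), and Cdc7 kinase 1.84 times (Dbf4 over Cdc7). In CPM the lowest loader subunit was Rfc4, at 6.62 in CCL19 cells and 4.83 in no-CCL19 cells, and not Rfc5 (11.1 and 11.2). By group, the ratio of MCM2-7 was 1.62 in CCL19 cells and 1.67 in no-CCL19 cells, and that of GINS was 32.7 in CCL19 cells and 33.9 in no-CCL19 cells. The ratio of ORC, at 140 in CCL19 cells and 210 in no-CCL19 cells, rests on 7 to 20 reads of Orc1 per library.

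**Figure D1:**
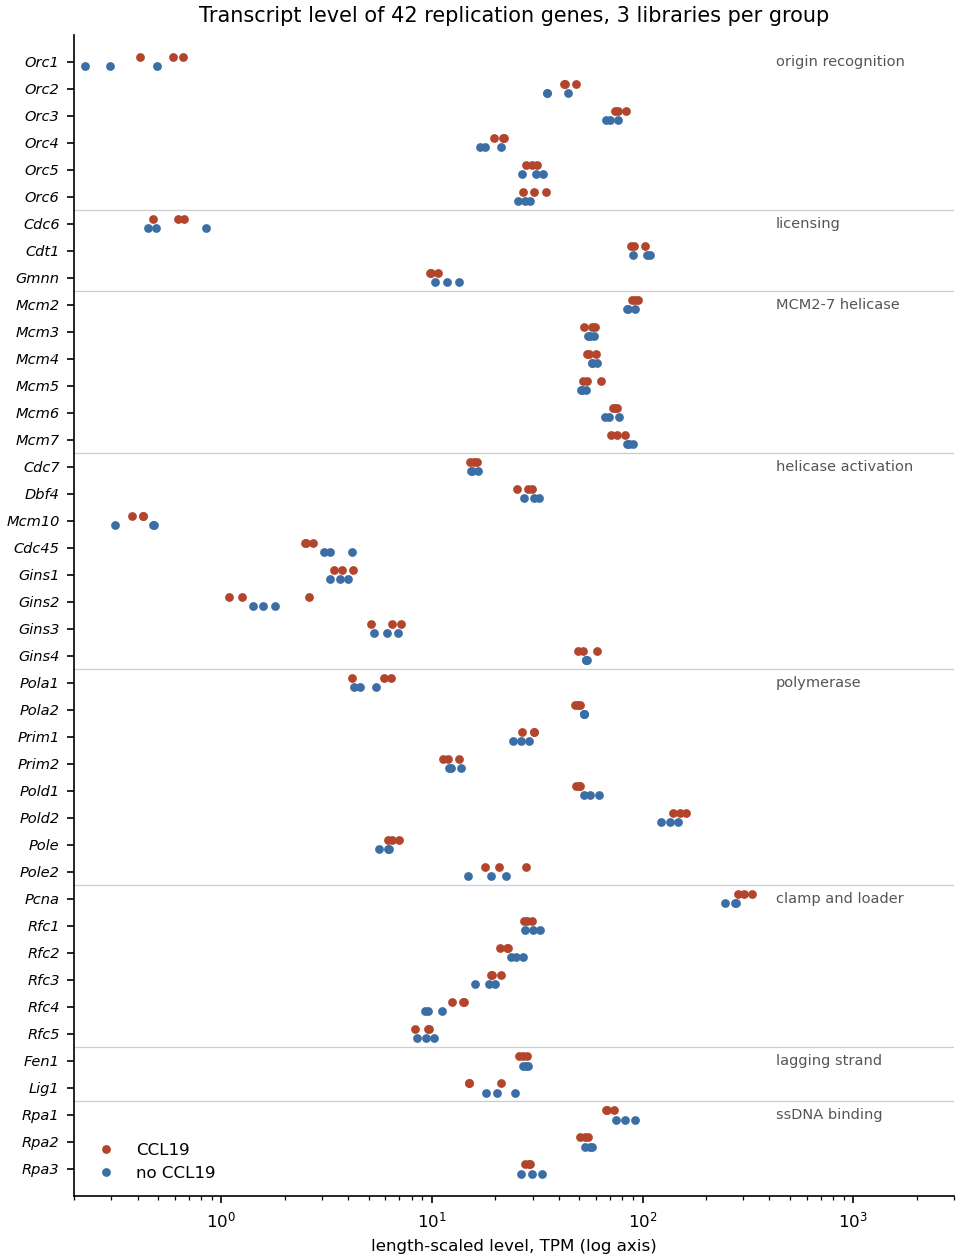
Level of each of the 42 genes in TPM on a log axis, 1 point per library, with the 3 CCL19 libraries above the 3 no-CCL19 libraries in each row and genes grouped by role. The 6 helicase subunits lie in 1 narrow band, while ORC holds a subunit far below the others (Orc1 at 0.446 TPM). GINS holds a subunit far above the others (Gins4 at 54 TPM, with the others at 1.62 to 6.16 TPM).

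The libraries held 16978736, 26980697 and 21509499 counts in the CCL19 group, and 23816093, 27429898 and 18203667 counts in the no-CCL19 group. Over all genes, edgeR's quasi-likelihood test with Benjamini-Hochberg adjustment called none of 11666 (0%), with a smallest adjusted p of 0.0505. At an unadjusted p under 0.05 it had 3213 (27.5%), of which 1696 (14.5%) were higher and 1517 (13%) lower with CCL19. DESeq2, run as an alternative, called 1168 of 9613 (12.2%), 630 higher (6.55%) and 538 lower (5.6%). Without CCL19 replicate 3, edgeR called 1599 genes, and without no-CCL19 replicate 3 it called 513, so the count of 0 depended on these libraries. Chi-square distances placed CCL19 replicate 3 nearest to no-CCL19 replicate 3. All 10 markers of naive CD4+ T cells were detected, with summed levels of 4950 to 5940 CPM (counts scaled to a common library total) in CCL19 cells and 5760 to 6800 CPM in no-CCL19 cells, and DESeq2 called 3 of them (Ccr7, Lef1 and Tcf7) lower. Summed B cell markers stood at 15.8 to 20.4 CPM in CCL19 cells and 19.8 to 22.9 CPM in no-CCL19 cells, and myeloid markers at 14.3 to 20.5 CPM in CCL19 cells and 14.3 to 21.2 CPM in no-CCL19 cells. Summed platelet markers stood at 8.85 to 12.2 CPM in CCL19 cells and 11.5 to 13.5 CPM in no-CCL19 cells, nearly all from Itga2b, while Ppbp was at 0 in all 6 libraries. Summed stromal and endothelial markers stood at 190 to 243 CPM in CCL19 cells and 233 to 277 CPM in no-CCL19 cells, nearly all from Pecam1, with Pdgfra at 0 in all 6 libraries. Pdgfrb was at 0.12, 0.263 and 0 CPM in CCL19 cells, against 0.496, 0.582 and 0.651 CPM in no-CCL19 cells (edgeR adjusted p = 0.079). Regulatory T cell markers summed to 23.8 to 26.8 CPM in CCL19 cells and 23.8 to 27.8 CPM in no-CCL19 cells. In the same order, CD8 T cell markers stood at 12.4 to 17.2 and 14.6 to 15 CPM. NK cell markers stood at 9.64 to 12.5 and 9.13 to 11.5 CPM. Dendritic cell markers stood at 2.18 to 3.61 and 2.55 to 4.02 CPM, and erythroid markers at 13.3 to 15 and 10.3 to 15.7 CPM. The part of other cells in the values below was not tested.

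The summed transcripts of the replication machinery differed little between cells with and without CCL19. Its 42 genes together took 0.169%, 0.166% and 0.171% of all counts in CCL19 libraries, and 0.171%, 0.169% and 0.171% in no-CCL19 libraries. The groups overlapped. The median log2 fold change (CCL19 over no CCL19) of the 42 genes was 0.02, beside 0.00 over all tested genes, with 23 above 0 and 19 below. Single genes lay between -0.43 and 0.79, and the median size of the change was 0.11, beside 0.16 for all tested genes.

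None of the 42 passed edgeR's test at an adjusted p under 0.05, as none of all genes did (0%). At an unadjusted p under 0.05, 3 were higher (Orc2, Pcna and Rfc4) and 3 lower (Mcm7, Pold1 and Rpa1), together 14.3%, against a background of 27.5%. DESeq2 gave an adjusted p to 36 of the 42 and called 1 of them, Rpa1, lower and none higher, against its background of 12.2%. In 9 of the 42 (21.4%) the CPM values of the groups did not overlap, beside 29.8% of all tested genes. Of these 9, 4 were higher (Orc3, Pole, Pcna and Rfc4), beside a background of 15.3%, and 5 were lower (Mcm7, Cdc45, Pola2, Pold1 and Rpa1), beside 14.5%. Apart from edgeR's adjusted count, which was 0 in both, these shares lay below the background, and whether they differ from it was not tested.

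The size of difference that these libraries leave possible was read from the 95% intervals of the fitted fold changes. These intervals are not adjusted for the number of genes. The interval lay wholly within 1.5-fold in either direction for 33 of the 42 genes (78.6%), beside 73.1% of all tested genes, within 1.3-fold for 23, and within 2-fold for 41. Precision followed depth. Of the 35 genes with a mean of at least 5 CPM, 32 (91.4%) had an interval within 1.5-fold, beside 89.2% of all tested genes at that level. Of the 7 genes under 5 CPM (Orc1, Cdc6, Gmnn, Mcm10, Cdc45, Gins1 and Gins2), 1 did. For the other 6 the intervals do not exclude a difference of more than 1.5-fold.

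**Figure D2:**
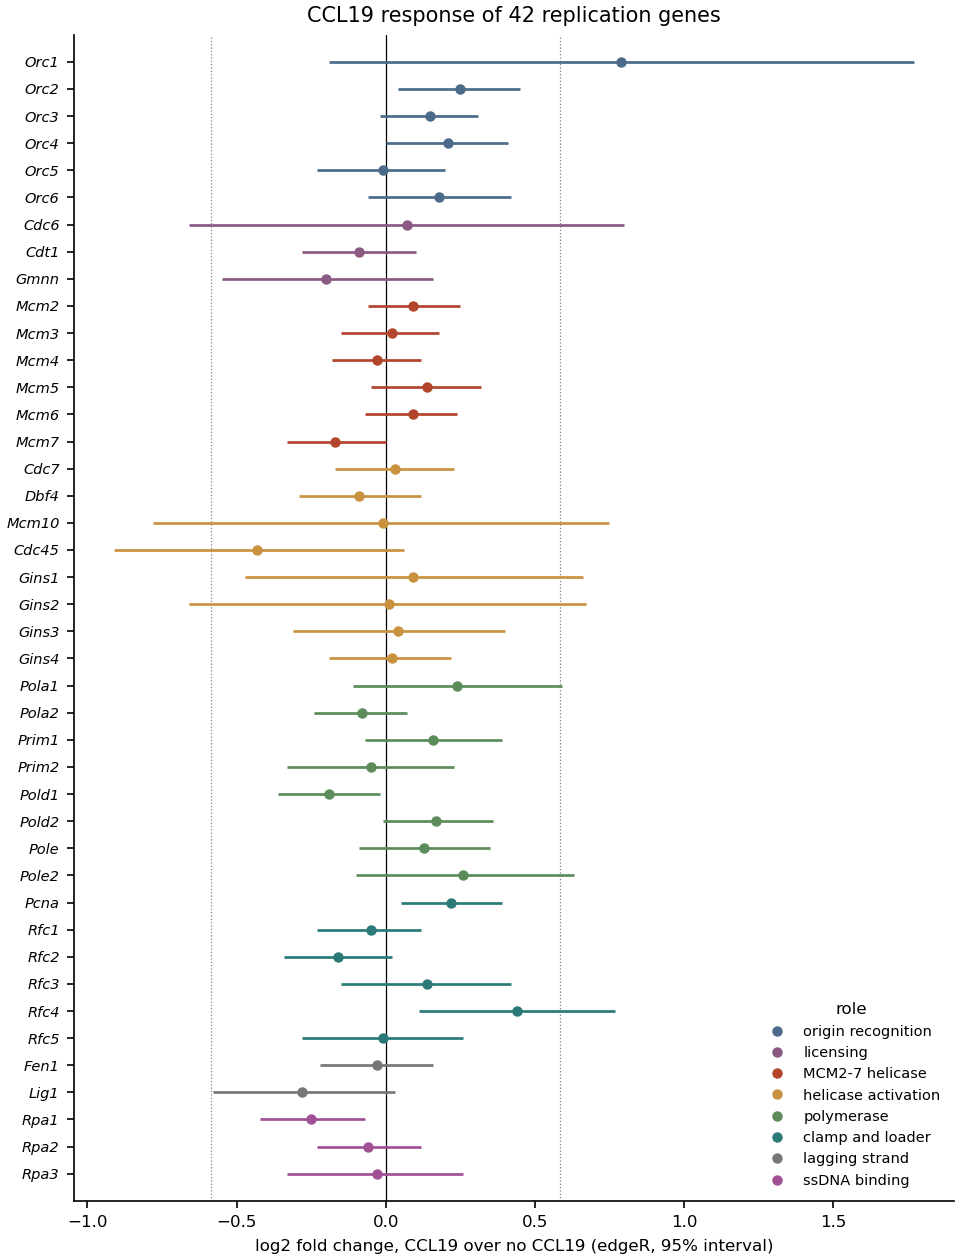
Log2 fold change of each gene, CCL19 over no CCL19, with its 95% interval from edgeR, coloured by role, and dotted lines at 1.5-fold in either direction. Points scatter on both sides of 0 between -0.43 and 0.79, and the widest intervals belong to the genes with the fewest counts, among them Orc1, Cdc6 and Mcm10.

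The origin recognition complex marks the sites where helicases are loaded. Of its subunits, 5 lay above 0, and the median over the 6 was 0.19, with no call by edgeR or DESeq2. Orc1 had 0.662, 0.751 and 0.464 CPM in CCL19 cells, against 0.331, 0.255 and 0.543 CPM in no-CCL19 cells. It had the largest fold change of the 42 genes, but the highest no-CCL19 library lay above the lowest CCL19 library and the counts were 11, 20 and 10 reads with CCL19 and 8, 7 and 10 reads without. Its log2 fold change was 0.79 ± 0.46 (SE, n = 3 each, edgeR adjusted p = 0.28), with an interval of -0.19 to 1.77. Orc2, at 59.4 ± 4.2 CPM in CCL19 cells and 50.1 ± 6.28 CPM in no-CCL19 cells (SD, n = 3 each), had a log2 fold change of 0.25 ± 0.10 (SE, edgeR adjusted p = 0.119). Without no-CCL19 replicate 3 DESeq2 called it higher (adjusted p = 0.0202), in a fit that called 1258 of all genes. The log2 fold change fell to 0.19 without no-CCL19 replicate 1 (edgeR adjusted p = 0.393). Orc3, Orc4, Orc5 and Orc6 had log2 fold changes of 0.15, 0.21, -0.01 and 0.18. With an offset for GC content and transcript length, those of Orc3 and Orc4 came to 0.06 and 0.07.

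Cdc6, Cdt1 and geminin decide whether helicases can be loaded. Cdc6 had 0.842, 1.2 and 1.11 CPM in CCL19 cells, against 0.868, 0.801 and 1.47 CPM in no-CCL19 cells. Values of the groups were interleaved, and the log2 fold change was 0.07 ± 0.34 (SE, n = 3 each, edgeR adjusted p = 0.919). Cdt1, which brings MCM2-7 to the origin, had 83.6, 72.6 and 74.4 CPM in CCL19 cells, against 84.8, 88.6 and 71.8 CPM in no-CCL19 cells. Here too the groups overlapped, and the log2 fold change was -0.09 ± 0.09 (SE, edgeR adjusted p = 0.535), or 0.03 with the GC and length offset. Gmnn, the Cdt1 inhibitor, had 4.33, 4.81 and 4.4 CPM in CCL19 cells, against 5.91, 4.59 and 5.10 CPM in no-CCL19 cells, a log2 fold change of -0.20 ± 0.17 (SE, edgeR adjusted p = 0.465). In all 3 genes the ranges of the groups overlapped. In length-scaled levels Cdt1 transcripts exceeded those of its inhibitor in both groups. They stood at 93.8 ± 7.66 TPM beside 10.1 ± 0.51 TPM for Gmnn in CCL19 cells. In no-CCL19 cells they stood at 101 ± 9.59 TPM beside 11.8 ± 1.59 TPM (SD, n = 3 each).

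MCM2-7 is the helicase that is loaded in G1 and unwinds DNA in S phase. Its 6 transcripts summed to 537, 536 and 533 CPM in CCL19 cells, against 515, 533 and 529 CPM in no-CCL19 cells. The interval of every subunit lay within 1.3-fold, the median log2 fold change was 0.05, and no subunit passed the test by edgeR or DESeq2. Mcm2 had 119, 117 and 112 CPM in CCL19 cells, against 105, 116 and 105 CPM in no-CCL19 cells (log2 fold change 0.09 ± 0.07, SE). Mcm3 had 65.0, 68.2 and 59.7 CPM in CCL19 cells, against 63.2, 62.7 and 64.8 CPM in no-CCL19 cells (0.02 ± 0.08). In both, the ranges of the groups overlapped. Mcm4 had 74.1, 73.8 and 80.2 CPM in CCL19 cells, against 76.3, 77.3 and 79.5 CPM in no-CCL19 cells (log2 fold change -0.03 ± 0.07, SE). Mcm5 had 82.1, 70.9 and 67.4 CPM in CCL19 cells, against 65.2, 70.1 and 64.9 CPM in no-CCL19 cells (0.14 ± 0.08). For Mcm5 the first CCL19 library stood above the rest and the other libraries overlapped. Mcm6 had 119, 122 and 123 CPM in CCL19 cells, against 107, 113 and 123 CPM in no-CCL19 cells (log2 fold change 0.09 ± 0.07, SE). Mcm7 had 78.5, 84.0 and 91.2 CPM in CCL19 cells, against 98.5, 93.5 and 92.9 CPM in no-CCL19 cells (-0.17 ± 0.08, edgeR adjusted p = 0.173). Mcm7 was the subunit whose groups did not overlap, all 3 CCL19 libraries lying lower by a small margin, and its gene body also holds microRNA genes such as Mir93. The edgeR adjusted p of the other 5 lay between 0.317 and 0.904.

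**Figure D3:**
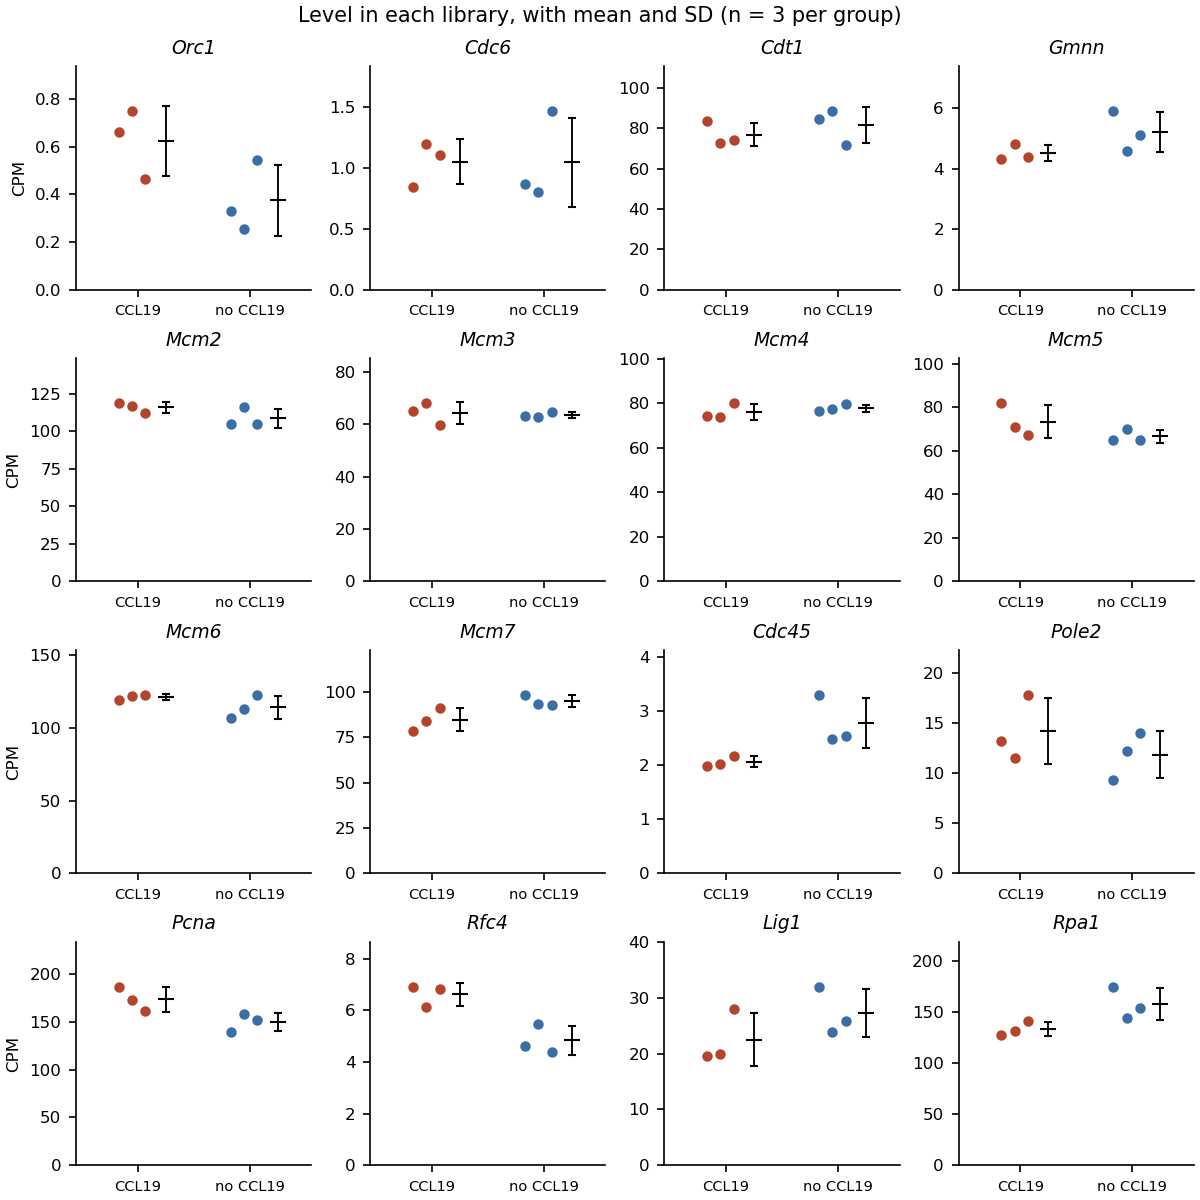
CPM of 16 genes in each library, CCL19 left of no CCL19, with the mean and SD of each group (n = 3) beside the points and every axis starting at 0. The helicase subunits differ little between groups, Pcna and Rfc4 lie higher and Rpa1 lower in all 3 CCL19 libraries, and Orc1, Cdc6 and Cdc45 lie near the floor.

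Helicase activation turns loaded helicases into moving forks. Its 8 genes had a median log2 fold change of 0.01, with no call by edgeR or DESeq2, which gave an adjusted p to 4 of them. Cdc45, which rides with the active helicase, had 1.99, 2.03 and 2.18 CPM in CCL19 cells, against 3.31, 2.48 and 2.55 CPM in no-CCL19 cells. All 3 CCL19 libraries lay lower, and its log2 fold change of -0.43 ± 0.23 (SE, n = 3 each, edgeR adjusted p = 0.235) was the most negative of the 42. The kinase subunits Cdc7 and Dbf4, which trigger activation, had 0.03 ± 0.09 and -0.09 ± 0.10. The GINS genes, which encode the other partner of the active helicase, lay between 0.01 (Gins2) and 0.09 (Gins1), and Mcm10 had -0.01 ± 0.36. Gins2 was uneven within the CCL19 group, with 3.79, 1.84 and 1.58 CPM, against 2.27, 2.62 and 2.01 CPM in no-CCL19 cells.

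The polymerases make the new strands, with polymerase alpha and primase laying primers and polymerases epsilon and delta extending them. Their 8 genes had a median log2 fold change of 0.14, 5 above 0 and 3 below, with no call by edgeR or DESeq2. Pole2, an accessory subunit of polymerase epsilon, had 13.2, 11.5 and 17.8 CPM in CCL19 cells, against 9.30, 12.2 and 14.0 CPM in no-CCL19 cells. The groups overlapped, and the log2 fold change was 0.26 ± 0.17 (SE, n = 3 each, edgeR adjusted p = 0.335). With 1 library left out it ran from 0.06, without CCL19 replicate 3, to 0.40. Of polymerase delta, Pold1 and Pold2 lay on opposite sides of 0. Pold1, the catalytic subunit, had 64.6, 64.9 and 62.5 CPM in CCL19 cells, against 79.5, 73.1 and 66.0 CPM in no-CCL19 cells, a log2 fold change of -0.19 ± 0.08 (SE, edgeR adjusted p = 0.151). Pold2 had 98.4, 93.2 and 85.3 CPM in CCL19 cells, against 74.5, 90.4 and 80.7 CPM in no-CCL19 cells, with 0.17 ± 0.09 (SE, edgeR adjusted p = 0.213). The other subunits of polymerase delta, Pold3 and Pold4, were taken from the list of other fork genes. They had log2 fold changes of 0.04 ± 0.08 and -0.27 ± 0.15 (SE), with no call. Pold1 and Pold2 have GC-rich transcripts (60.7% and 58.7%), and with the GC and length offset their log2 fold changes were -0.04 and 0.29. Under that offset DESeq2 called Pold2 higher (adjusted p = 0.041) and edgeR did not (adjusted p = 0.102). That DESeq2 fit called 863 of all genes. Pola1, Pola2, Prim1, Prim2 and Pole lay between -0.08 (Pola2) and 0.24 (Pola1), with Pola1 between 0.09 and 0.41 when 1 library was left out.

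The clamp holds polymerase on its template and the RFC complex loads it. Pcna had 187, 173 and 161 CPM in CCL19 cells, against 139, 158 and 152 CPM in no-CCL19 cells. Every CCL19 library lay above every no-CCL19 library, by a narrow margin at the closest pair, and the log2 fold change was 0.22 ± 0.08 (SE, n = 3 each). It missed the threshold in edgeR (adjusted p = 0.106) and in DESeq2 (adjusted p = 0.079). Without CCL19 replicate 3, the lowest of its group, DESeq2 called it (adjusted p = 0.0301), in a fit that called 1704 of all genes. The log2 fold change was 0.16 without CCL19 replicate 1 (adjusted p = 0.356 in edgeR and 0.332 in DESeq2). In edgeR it was 0.17 without no-CCL19 replicate 1 (adjusted p = 0.377) and 0.16 with the GC and length offset (adjusted p = 0.244). Rfc4, a loader subunit, had 6.92, 6.12 and 6.82 CPM in CCL19 cells, against 4.63, 5.46 and 4.4 CPM in no-CCL19 cells. The groups were apart, and the log2 fold change was 0.44 ± 0.15 (SE), with an adjusted p of 0.0934 in edgeR and 0.112 in DESeq2. Rfc4 shares 185 bases with Eif4a2 on the opposite strand. Eif4a2 reached 10970 counts in a library and had a log2 fold change of 0.13, and without a stated strand setting the reads of the shared bases cannot be told apart. The other loader genes lay on both sides of 0. Rfc1, Rfc2, Rfc3 and Rfc5 had log2 fold changes of -0.05, -0.16, 0.14 and -0.01, with none called by edgeR or DESeq2.

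Fen1 and Lig1 process and seal the fragments of the lagging strand. Lig1 had 19.6, 19.9 and 28.0 CPM in CCL19 cells, against 32.0, 23.8 and 25.9 CPM in no-CCL19 cells. The third CCL19 library lay among the no-CCL19 libraries and the other 2 below them, and the log2 fold change was -0.28 ± 0.14 (SE, n = 3 each, edgeR adjusted p = 0.224). Without CCL19 replicate 3 it was -0.47 and passed edgeR's test (adjusted p = 0.0269), in a fit that called 1599 of all genes. Without no-CCL19 replicate 1 the log2 fold change of Lig1 was -0.14 (edgeR adjusted p = 0.66). Lig1 overlaps Zswim9 on the opposite strand over 1409 bases. Fen1 had a log2 fold change of -0.03 ± 0.09 (SE, edgeR adjusted p = 0.861).

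Replication protein A coats single-stranded DNA at forks and during repair. Rpa1 (chr11:75300259-75348383, minus strand, mm10), its largest subunit, had 128, 131 and 141 CPM in CCL19 cells, against 175, 144 and 154 CPM in no-CCL19 cells. All 3 CCL19 libraries lay below all 3 no-CCL19 libraries, with the nearest pair close together. In length-scaled levels this was 69.1 ± 3.53 TPM in CCL19 cells and 83.2 ± 8.73 TPM in no-CCL19 cells (SD, n = 3 each). The fitted fold was 0.842, with an interval of 0.746 to 0.952, and the log2 fold change was -0.25 ± 0.08 (SE). DESeq2 called it at an adjusted p of 0.04999, at the edge of the threshold, and edgeR did not call it (adjusted p = 0.0824). Without the filter on low counts edgeR did call it (adjusted p = 0.0403), in a fit that called 1600 of 15905 genes (10.1%). Without no-CCL19 replicate 1, the highest library, the log2 fold change was -0.17 and neither tool called it (adjusted p = 0.36 in edgeR and 0.245 in DESeq2). DESeq2's call was also lost without CCL19 replicate 1 (adjusted p = 0.195), CCL19 replicate 2 (0.211) or no-CCL19 replicate 3 (0.0835). The GC offset left it at -0.26. The other subunits, Rpa2 and Rpa3, had -0.06 ± 0.08 and -0.03 ± 0.14 (SE), with no call. In bulk samples a smaller share of cells with a transcript and less of it per cell cannot be told apart. In the authors' deposited table of changed genes, which lists 630 genes as higher and 538 as lower, Rpa1 was the single gene of the 42, listed as lower with CCL19. That list held the same 1168 genes, in the same directions, as the DESeq2 calls here.

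Genes around the machinery were taken from 4 lists, none of which had a call by edgeR. At an unadjusted p under 0.05, edgeR had 7 of 39 other fork and origin firing genes (17.9%), 4 of 21 of nucleotide supply and chromatin assembly (19%), 5 of 19 of the E2F and pocket protein list (26.3%) and 1 of 19 of G2 and M phase (5.26%), beside 27.5% of all tested genes. DESeq2 gave an adjusted p to 31 of the 39 other genes of forks and origin firing. It called 1 of them higher and 1 lower, and the median log2 fold change of the 39 was 0.00. Over all genes given an adjusted p, DESeq2 called 12.2%, with 6.55% higher and 5.6% lower. Top1, the topoisomerase that relieves twist ahead of forks and transcribing polymerases, had 211, 197 and 193 CPM in CCL19 cells, against 133, 150 and 169 CPM in no-CCL19 cells. Its log2 fold change was 0.42 ± 0.09 (SE, n = 3 each), with an adjusted p of 0.00249 in DESeq2 and 0.0505 in edgeR. Tonsl, a histone reader that acts in repair of broken forks, had 27.0, 33.6 and 34.6 CPM in CCL19 cells, against 53.1, 42.8 and 38.3 CPM in no-CCL19 cells. It was called lower by DESeq2, with a log2 fold change of -0.49 ± 0.12 (SE, adjusted p = 0.00775, against 0.0505 in edgeR). In both genes the groups were apart. DESeq2 still called Top1 with any 1 library left out. Its calls of Tonsl, and those of Nasp, Msh6 and Tfdp1 below, were lost without CCL19 replicate 1, CCL19 replicate 2 or no-CCL19 replicate 1.

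Of 21 tested genes of nucleotide supply and chromatin assembly, DESeq2 gave an adjusted p to 17. It called 2 of these higher and none lower, beside 12.2% of all genes, and the median log2 fold change of the 21 was 0.09. Nasp, a chaperone of histones, had 147, 150 and 140 CPM in CCL19 cells, against 117, 122 and 128 CPM in no-CCL19 cells, with 0.26 ± 0.07 on the log2 scale (SE, DESeq2 adjusted p = 0.0206). Msh6, a mismatch repair protein, had 95.7, 93.2 and 98.8 CPM in CCL19 cells, against 80.2, 83.4 and 82.7 CPM in no-CCL19 cells, with 0.22 ± 0.07 (SE, DESeq2 adjusted p = 0.0454). These gaps were small but wider than the spread within either group. The edgeR adjusted p was 0.0574 for Nasp and 0.0712 for Msh6. DESeq2's call of Nasp was also lost without no-CCL19 replicate 2, and that of Msh6 with any 1 library left out.

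Of 19 tested genes of the E2F and pocket protein list, DESeq2 gave an adjusted p to 17. It called 1 of these higher and none lower, beside 12.2% of all genes, and the median log2 fold change of the 19 was -0.01. Tfdp1, a partner with which E2F proteins bind DNA, had 115, 111 and 92.9 CPM in CCL19 cells, against 74.7, 90.9 and 87.5 CPM in no-CCL19 cells. Its log2 fold change was 0.33 ± 0.10 (SE, n = 3 each), with an adjusted p of 0.0238 in DESeq2 and 0.0606 in edgeR. DESeq2 did not call it with the GC and length offset. Tfdp2, another such partner, lay the other way at -0.26 ± 0.13 (SE), with no call (adjusted p = 0.222 in edgeR and 0.208 in DESeq2). Both tools called Tfdp2 lower without CCL19 replicate 3, in fits that called 1599 of all genes with edgeR and 1704 with DESeq2. Among the activating E2F genes, E2f1 had 0.04 ± 0.16, E2f2 -0.18 ± 0.17 and E2f3 0.38 ± 0.12 (log2 fold change and SE). E2f3 had 13.7, 12 and 12.1 CPM in CCL19 cells, against 9.05, 9.28 and 10.6 CPM in no-CCL19 cells, and missed the threshold in both tools (adjusted p = 0.0752 in edgeR and 0.0708 in DESeq2). Ccne1 and Ccne2, the E-type cyclins that act at S phase entry, had -0.32 ± 0.20 and 0.18 ± 0.31, and Rbl2, a pocket protein of resting cells, had -0.21 ± 0.09, none called by either tool (DESeq2 gave the E-type cyclins no adjusted p), though both called Rbl2 lower without CCL19 replicate 3. Of 19 tested genes of G2 and M phase, neither tool called any, and the median was 0.04. DESeq2 gave an adjusted p to only 6 of the 19, so it could not call the other 13. Mki67, a proliferation marker, had 7.04, 7.58 and 8.25 CPM in CCL19 cells, against 8.72, 7.94 and 8.03 CPM in no-CCL19 cells, with overlapping groups (log2 fold change -0.11 ± 0.13, SE).

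Genes with and without the E2F-type words had overlapping fold changes. The 14 replication genes with a word had a median log2 fold change of 0.08 (-0.28 to 0.79) and the 20 with a promoter and no word -0.01 (-0.43 to 0.44). Over all tested genes with a promoter the medians were 0.01 with a word and 0.00 without. These are descriptions with no test.

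Fold changes of all genes moved with the GC content of their transcripts, and those of the replication genes did too. Between log2 fold change and transcript GC content, Spearman's rho was -0.324 over 11188 genes and -0.469 across the 42, where genes share libraries and are not independent. Median log2 fold changes of all genes ran from 0.12 in the lowest of 10 GC classes to -0.158 in the highest. The replication genes had a median GC content of 48.5%, beside 50.2% for all tested genes. With the offset named above the median log2 fold change of the 42 remained 0.02. The part of GC content in single differences was not tested.

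**Figure D4:**
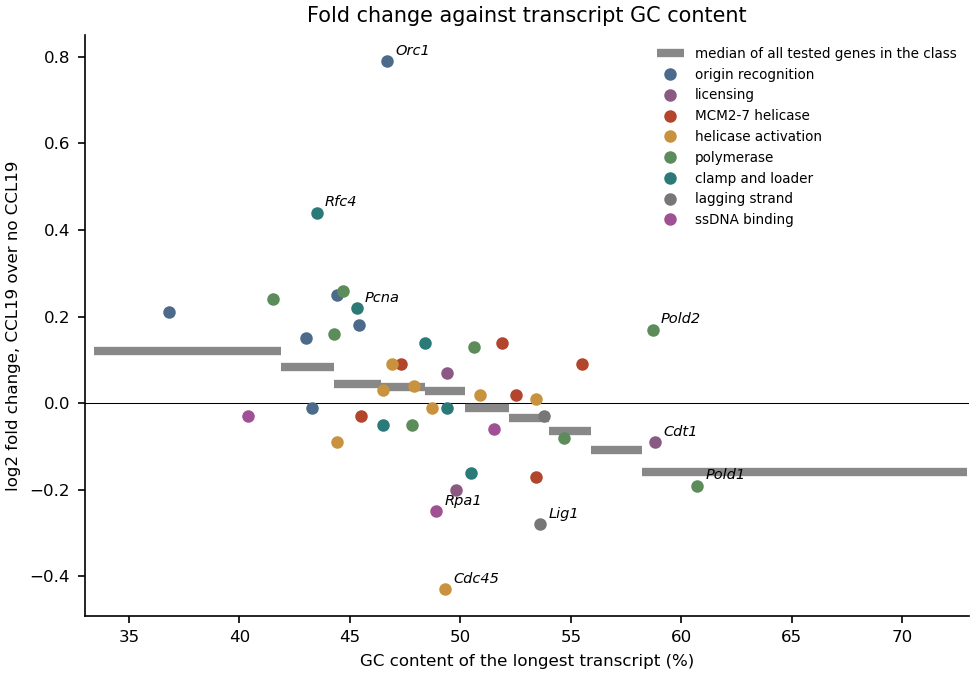
Log2 fold change, CCL19 over no CCL19, against the GC content of the transcript in percent, 1 point per replication gene coloured by role, with grey bars for the median of all tested genes in each of 10 GC classes. The bars step down from 0.12 to -0.158 and the points lean the same way (Spearman's rho -0.469 across 42 genes and -0.324 across 11188).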

How the data were processed

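Messenger RNA of 6 samples was sequenced from Illumina TruSeq libraries, per the labels. Per the submitters' processing notes, STAR 2.5 aligned the reads to mm10 and featureCounts 1.5.0-p1 (Subread) counted them over genes. The table the authors deposited holds raw, unnormalized counts. The sources used here state neither the strand setting nor the annotation release nor how multiply matching reads were handled. A list of genes the authors called changed was deposited too, and their processing notes name DESeq2 1.28.1.

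Groups came from the sample titles. The members and gene lists were chosen with earlier results of these data known. Counts were tested with edgeR 4.0.16 (filterByExpr, TMM, quasi-likelihood F test, Benjamini-Hochberg threshold 0.05) in R 4.3.3 over all 11666 genes that passed the filter, and members' rows were read from that fit. SE and 95% intervals come from it. DESeq2 1.42.0 (independent filtering at 0.1) and limma 3.58.1 (voom) were alternatives, beside other filters and scalings, a replicate term, a GC and length offset (splines with 5 degrees of freedom) and leaving out each library. CPM are counts scaled by library size and TMM. TPM divide counts by the joined exon length of all basic transcripts of GENCODE M21 genes (GRCm38). Sequences are RefSeq's (GRCm38.p6). Library totals lay between 16978736 and 27429898 counts, and the scripts were tested on simulated counts. Genes given values in every library are the helicase subunits, Cdc6, Cdt1, Gmnn, Pcna, members called by either tool, and the 3 highest and 3 lowest fold changes; values in every library of Pold1, Pold2, Gins2 and Pdgfrb fall outside this choice and were added once seen. In the surrounding lists, genes called by DESeq2 were named, and E2f1, E2f2, E2f3, Ccne1, Ccne2, Rbl2 and Mki67 always. Tfdp2 falls outside this choice and was added once seen.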

Additional observations from a re-analysis of the deposited data

How the results depend on the processing

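Across 22 alternatives, 12 of which left out a library, 854 of 922 results for single replication genes kept their direction and their side of the threshold, 11 passed it and 57 turned direction, and 29 of the 42 genes kept their direction throughout. Where DESeq2 gave no adjusted p, a result could not pass the threshold and was counted by its direction alone. The number of all genes past the threshold was 0 with edgeR, 1168 with DESeq2, 863 with DESeq2 and a GC and length offset, 1600 without the filter on low counts, and 529 with a robust prior. When a library was left out it was 0 to 1599 with edgeR, and with DESeq2 it was 55, 123 and 1704 without CCL19 replicates 1, 2 and 3, and 105, 1010 and 1258 without no-CCL19 replicates 1, 2 and 3. The number of replication genes was 0 with edgeR, 1 with DESeq2 (Rpa1), 2 with DESeq2 and the offset (Rpa1 and Pold2), 1 without the filter (Rpa1), and 0 to 3 when a library was left out. Without CCL19 replicate 3, edgeR called Lig1 and Rpa1, and DESeq2 called these and Pcna. Without no-CCL19 replicate 2, DESeq2 called Rpa1, and without no-CCL19 replicate 3 it called Orc2. The 4 surrounding lists held 0 calls with edgeR, 5 with DESeq2, 5 with DESeq2 and the offset, 7 without the filter, 2 with a robust prior, and 0 to 8 when a library was left out. The median log2 fold change of the replication genes was 0.02, and 0.00 to 0.05 when a library was left out. The cause of these shifts was not tested.

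Same-numbered libraries of the groups did not deviate together (Pearson's r of -0.164, 0.081 and -0.021 for replicates 1, 2 and 3), and CCL19 replicate 1 correlated best with no-CCL19 replicate 2, so the numbers were not treated as pairs. By chi-square per degree of freedom, CCL19 replicate 3 lay closer to no-CCL19 replicate 3 (5.32) than to CCL19 replicates 1 (17.4) and 2 (12.2). Whether that pair belongs together was not tested. With the replicate number as a block, edgeR called 0 genes and DESeq2 178, of which 0 were replication genes and 1 was in the surrounding lists.

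Turned directions belonged to fold changes near 0 or with few counts. Under the GC and length offset, log2 fold changes were 0.03 with edgeR and 0.04 with DESeq2 for Cdt1, -0.02 and -0.01 for Cdc7, and 0.01 and 0.01 for Fen1. Mcm10 had 0.02 with limma and 0.00 with the replicate block. Gins2 had 0.00 with a filter of 1 CPM in 3 libraries, -0.13 with limma, and -0.02 with edgeR and -0.03 with DESeq2 under the block. Leaving out no-CCL19 replicate 3 gave -0.04 for Gins2 and leaving out no-CCL19 replicate 2 gave -0.04 for Gins3, both with DESeq2. With edgeR, leaving out CCL19 replicate 3 gave 0.22 for Gins2. Over both tools, leaving out a library gave ranges of -0.09 to 0.06 for Orc5, -0.13 to 0.35 for Cdc6, -0.03 to 0.07 for Mcm3, 0.00 to 0.06 for Cdc7, -0.20 to 0.09 for Mcm10, -0.44 to 0.26 for Gins2, -0.07 to 0.17 for Gins3, -0.08 to 0.08 for Gins4, -0.12 to 0.03 for Prim2, -0.08 to 0.07 for Rfc5, -0.06 to 0.00 for Fen1 and -0.11 to 0.04 for Rpa3. Among genes that kept their direction, leaving out a library gave 0.54 to 1.11 for Orc1, -0.52 to -0.28 for Cdc45, 0.06 to 0.40 for Pole2, 0.09 to 0.41 for Pola1, -0.47 to -0.14 for Lig1 and -0.31 to -0.17 for Rpa1. Depth limits the genes under 5 CPM most, and 3 libraries per group limit them all.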
